A study of Mus musculus with 9 samples.

Results

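The type I interferon-stimulated antiviral genes of the mouse lung are described here in 9 libraries of injured and control lungs. They were taken as a list of 44 gene names, matched exactly to the names in the deposited gene tables. Of the 44, 42 had a row among the 21930 protein-coding genes of the tables, and all 42 passed the filter on low counts that left 15636 genes in the test. Mx1 and Mx2 had no row under those names and are not analysed here.

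The study took lungs of male C57BL/6 mice aged 6 to 8 weeks, in 3 groups of 3 biological replicates. Lipopolysaccharide (LPS), the outer-membrane glycolipid of Gram-negative bacteria that is used to model acute lung injury, was instilled into the trachea at 2 mg/kg in the LPS and LPS+RSBD groups, and sterile saline in the control group. All animals were anesthetized with tribromoethanol. Gavage began 24 hours after instillation and was planned for 5 daily doses, of vehicle in the control and LPS groups and, in the LPS+RSBD group, of Renshen Baidu Powder (RSBD), a herbal decoction of Chinese medicine. Lungs were taken on day 5 after LPS, so the list is read days after the injury, in whole tissue. The libraries within a group are numbered 1 to 3 as in the labels, and the numbers give no order.

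Type I interferons are secreted when a cell senses viral nucleic acid or bacterial products, and they act on nearly every cell through a shared receptor of the chains Ifnar1 and Ifnar2. The receptor's kinases activate a complex that holds Stat2 and Irf9, enters the nucleus and binds interferon-stimulated response elements in promoters. The genes it switches on sense viral RNA and DNA, degrade RNA, stop translation, hold back virus release, or feed back on the pathway, as Irf7 and Usp18 do. In the lung, alveolar macrophages, epithelium and recruited monocytes are known sources of and responders to these interferons.

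Total counts per library lay between 26959662 and 36113905. Each control library held 6 to 9 reads of chromosome Y genes, and the others held 7511 to 10918, although the labels call every animal male. Each comparison with control therefore also compares libraries without and with Y transcripts, and treatment and this difference cannot be told apart. Markers of alveolar type 2 cells, which define lung, were abundant in every library, with a sum of 12986 to 19944 CPM over 10 genes (CPM is the count per 1e+06 counts, after TMM scaling of the libraries).

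The consensus of the response element was searched in RefSeq promoter windows (GRCm38.p6) as the 4 letters GAAA, any 2 bases and GAAA again, on both strands, so that it reads TTTC, 2 bases and TTTC where it lies on the other strand. Windows of 300 bases, from 250 before the start site to 50 after it, were given for 32 of the 44 members. An element was found in 15 of these 32 (46.9%), against 3.99% of the 27025 genes with a window and 3.44% of all 32851 windows. A match of these letters is a description of the window, and binding there was not measured. The windows of Isg15, which encodes a ubiquitin-like protein joined to other proteins, and of Ifit1, which encodes a binder of foreign RNA caps, are shown whole because each holds several elements. Letters run 5′ to 3′ along the gene, and the elements are in capitals.
Isg15 promoter window, chr4:156200769-156201068, minus strand: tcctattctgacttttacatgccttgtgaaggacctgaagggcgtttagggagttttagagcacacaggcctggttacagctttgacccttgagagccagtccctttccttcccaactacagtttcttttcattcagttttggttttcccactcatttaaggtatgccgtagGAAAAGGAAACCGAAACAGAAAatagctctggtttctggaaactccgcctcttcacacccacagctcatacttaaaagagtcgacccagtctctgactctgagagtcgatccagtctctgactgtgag
Ifit1 promoter window, chr19:34640639-34640938, plus strand: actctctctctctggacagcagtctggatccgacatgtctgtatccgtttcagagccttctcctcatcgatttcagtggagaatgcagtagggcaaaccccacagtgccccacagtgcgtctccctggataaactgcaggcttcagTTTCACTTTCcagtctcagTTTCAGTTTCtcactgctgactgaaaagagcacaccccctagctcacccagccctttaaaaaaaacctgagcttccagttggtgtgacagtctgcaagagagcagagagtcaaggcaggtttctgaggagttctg

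In Isg15, 3 elements overlap in a run from -78 to -57, with the start site at 0. In Ifit1, 2 separate elements lie on the other strand between -104 and -76. The element stretches of 2 pairs of neighbouring paralogs, and of the called members Bst2 and Eif2ak2, follow with 4 flanking bases on each side, to show what the pairs share and how near the elements lie to the start.
Ifit3, chr19:34583369-34583420, plus strand: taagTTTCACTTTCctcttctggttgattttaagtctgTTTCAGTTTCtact
Ifit3b, chr19:34607765-34607816, plus strand: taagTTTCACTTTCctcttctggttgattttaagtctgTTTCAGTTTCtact
Oas1a, chr5:120907526-120907549, minus strand: tcggGAAATGGAAACTGAAAatct
Oas1g, chr5:120887612-120887635, minus strand: tcggGAAATGGAAACTGAAAatct
Bst2, chr8:71537583-71537606, minus strand: ccagGAAAATGAAACTGAAAggct
Eif2ak2, chr17:78882541-78882558, minus strand: ccggGAAAACGAAAcaga

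The stretches of Ifit3 and Ifit3b were identical over 52 of 52 bases, and those of Oas1a and Oas1g over 24 of 24. Such paralogs are also alike in their transcripts, so reads may have been shared between them and their separate counts are uncertain. Single elements were found in Rsad2, Oas3, Stat2, Ddx58, Ifih1, Slfn5 and, once in each of its 2 windows, Trim30a. The letters were not found in the windows of 17 members, Irf7, Irf9, Ifit2, Oasl1, Oasl2, Xaf1 and Epsti1 among them. No window was given for Oas2, Usp18, Dhx58, Ifi27l2a, Ifi27, Zbp1, Rtp4, Parp14, Parp9 and Ifi204. The median log2 fold change from control to LPS was 0.44 over the 15 members with an element and 0.35 over the 17 with a window and none, and this difference was not tested.

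**Figure D1:**
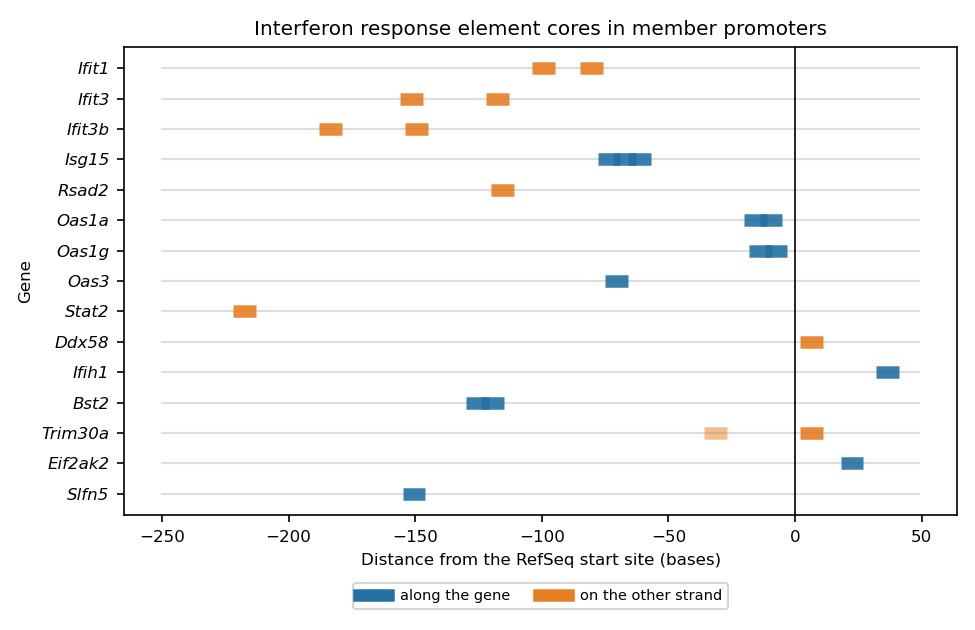
Positions of the 24 elements in the promoter windows of 15 members. The horizontal axis is the distance in bases from the RefSeq start site, each grey line is a window, and colour gives the strand; the paler bar is the second window of Trim30a. In 10 of the 24, the first base lies within the 100 bases before the start.

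Levels of the members differed widely when compared per transcript length, in TPM, the deposited length-scaled unit. In control lungs the highest mean was that of Ifi27, a mitochondrial protein gene, with a TPM of 245.3 ± 49.8 (SD, n = 3), and the next was that of the nuclear-body gene Sp100, with 153.3 ± 7.69. The lowest were those of Oasl1, with 3.66 ± 1.39, and of Rsad2, the gene of the antiviral enzyme viperin, with 4.94 ± 4.01. The list was thus transcribed in uninjured lung, and the SD of Rsad2 was nearly as large as its mean there.

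After LPS the list was shifted upward, and few single members passed the test. Of the 42 members, 6 rose against control by edgeR's quasi-likelihood test at an adjusted p of 0.05 over all genes (14.3%), and 0 fell, beside 8.79% of all genes tested that rose and 8.63% that fell. The 6 were Dhx58, Ifi204, Eif2ak2, Bst2, Xaf1 and Epsti1. By DESeq2 11 rose and 0 fell, beside 12.5% and 11.3% of all genes. The 11 were the same 6 with Isg15, Oas1a, Ifih1, Ifi27l2a and Sp100. An unadjusted edgeR p under 0.05 was met by 13 members, all with higher levels after LPS, and by 17.2% of all genes with higher and 17.3% with lower levels. In 21 members (50.0%) all 3 LPS libraries lay above all 3 controls, and in 0 all lay below, against 18.6% and 19.5% of all genes tested. The median log2 fold change was 0.36 over the members and -0.01 over all genes tested. A positive value was found in 40 members (95.2%, beside 49.4% of all genes tested). When log2(TPM + 1) was used in place of scaled counts, 33 were positive. There the median log2 fold change was 0.26 over the members and -0.09 over all genes. Lung tissue is a mixture, and more cells of a type and more RNA per cell cannot be told apart here.

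The number of members called moved with the library left out, and so did the share of all genes called higher. It was 1 without control 1 (5.80% of all genes), control 2 or LPS 2 (2.67% each), 2 without LPS 1 (9.38%), and 3 without control 3 (3.24%), LPS 3 (6.30%) or LPS+RSBD 3 (9.06%). It was 5 without LPS+RSBD 2 (7.63%) and 13 without LPS+RSBD 1 (7.09%). Epsti1 kept its call in all 17 alternatives tried, including each left-out library, and the other 5 kept theirs in 4 to 8 of 17.

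**Figure D2:**
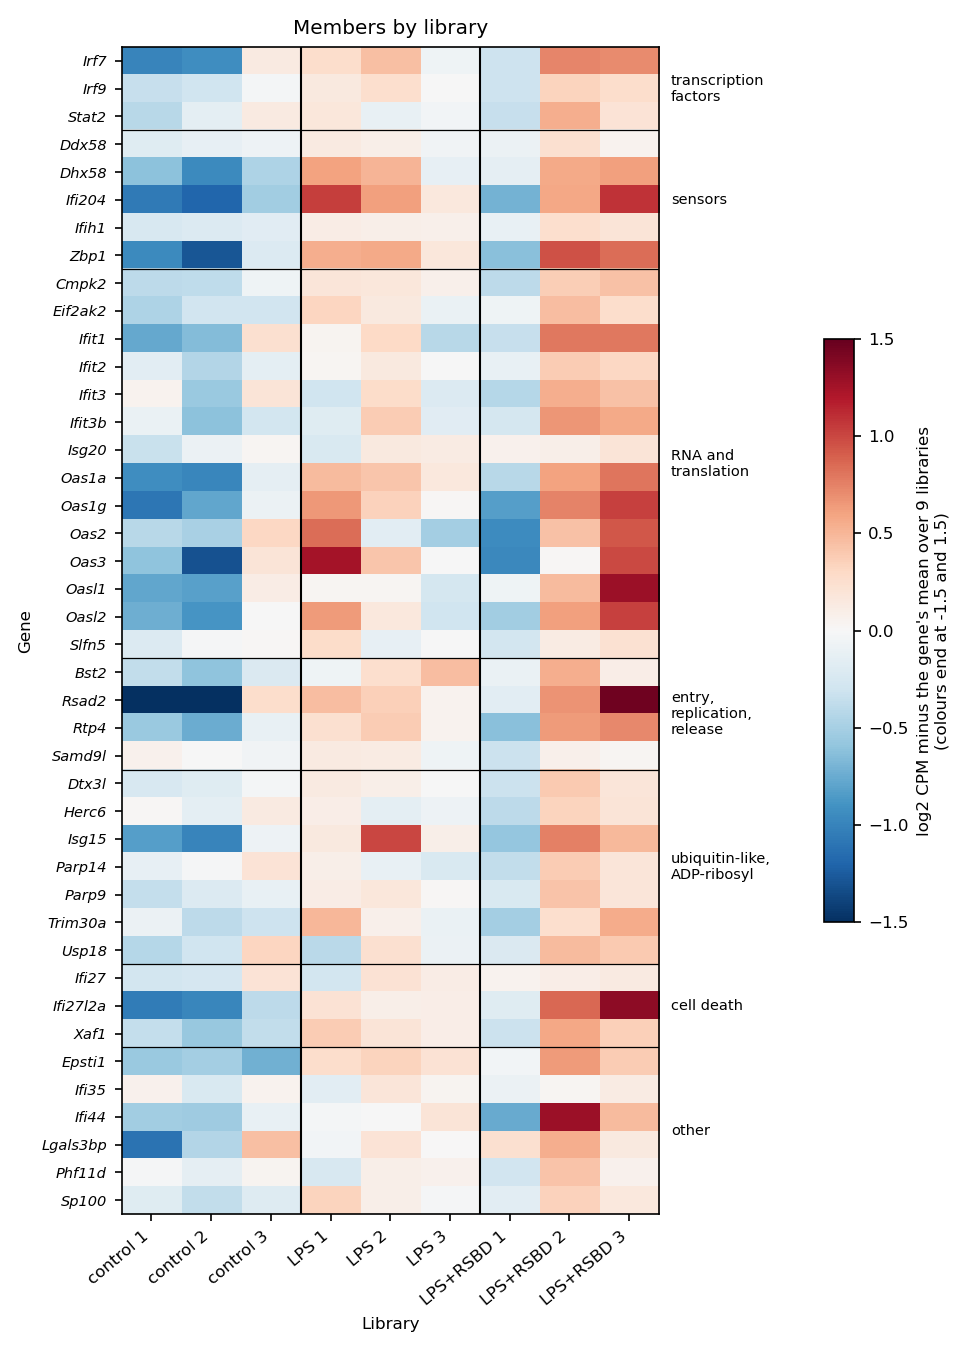
Level of each of the 42 members (rows, grouped by role) in each of the 9 libraries (columns), as log2 CPM minus the gene's mean over the libraries. Control 1 and 2 are blue in most rows, and LPS+RSBD 1 is paler or bluer than LPS+RSBD 2 and 3 in 41 of 42 rows.

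With LPS+RSBD most members also had positive values against control, but library 1 of that group read within the control range. Against control, 3 members rose by edgeR (7.14%), Dhx58, Ifi27l2a and Epsti1, and 0 fell, beside 1.89% of all genes tested that rose and 1.80% that fell. DESeq2 called 12 higher and 0 lower, beside 5.73% and 5.42% of all genes. The 12 were the same 3 with Ifit2, Oas1a, Oasl1, Irf7, Ifih1, Xaf1, Bst2, Eif2ak2 and Ifi204. An unadjusted edgeR p under 0.05 was met by 24 members, all higher, and by 12.3% of all genes with higher and 10.4% with lower levels. The groups did not overlap in 10 members, all higher with LPS+RSBD (23.8%), and in 0 in the other direction, against 15.4% and 15.0% of all genes tested. The median log2 fold change was 0.51 over the members and 0.01 over all genes. Both comparisons use the same 3 control libraries, so they are not independent of each other. The count of 3 became 0 without control 2 (0.279% of all genes called higher) or control 3 (0.349%), and 1 without control 1 (0.659%), LPS 2 (1.06%), LPS+RSBD 2 (0.342%) or LPS+RSBD 3 (2.13%). It became 15 without LPS+RSBD 1 (1.28%). Over the 17 alternatives Epsti1 kept this call in 14, Dhx58 in 5 and Ifi27l2a in 3.

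**Figure D3:**
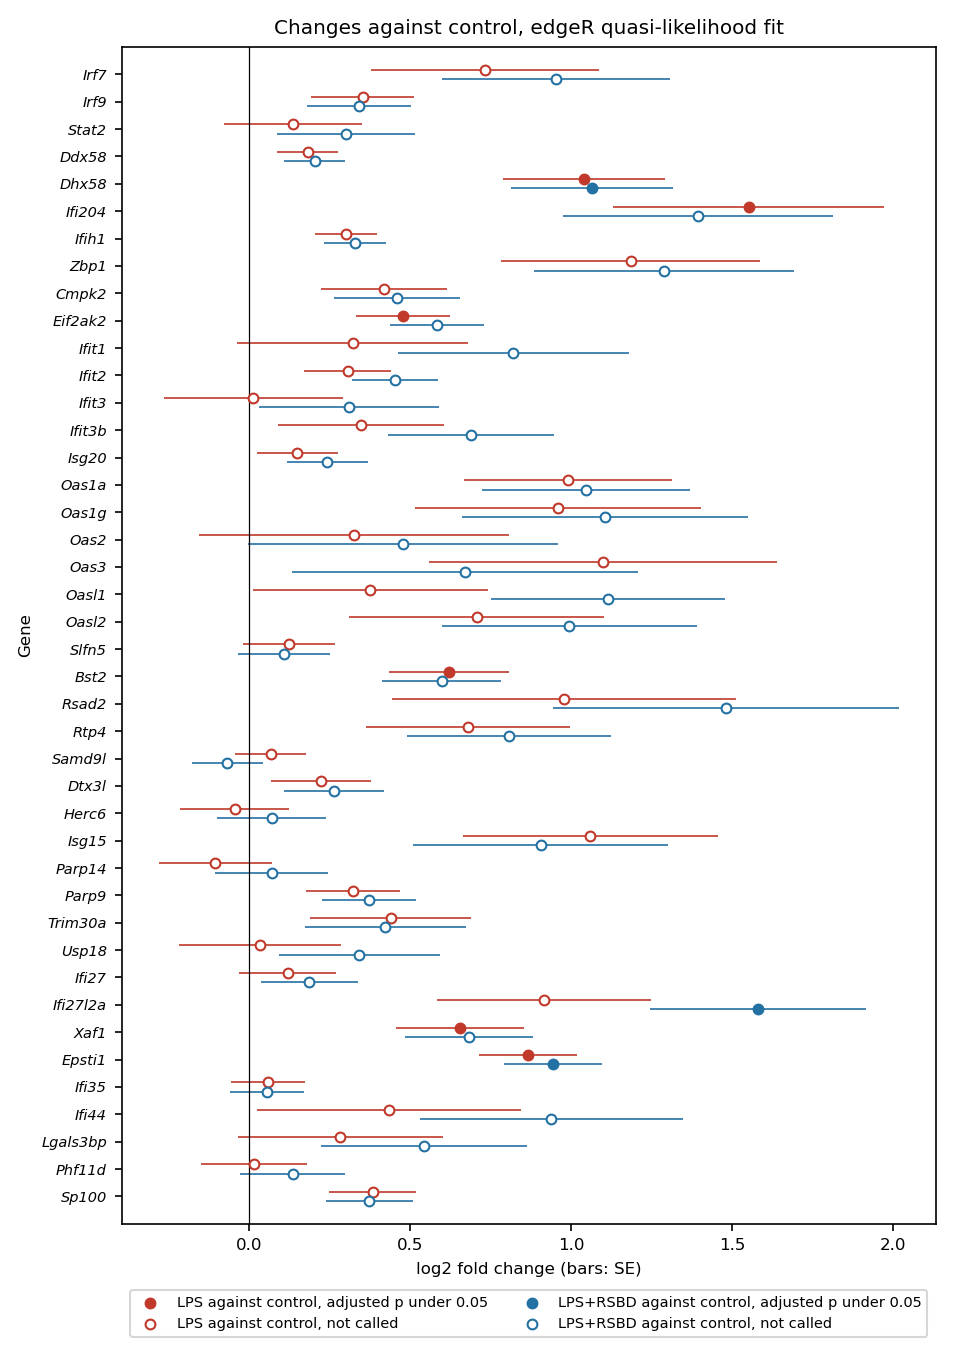
Log2 fold change of each member against control, in LPS (red) and LPS+RSBD (blue), with bars of 1 SE from the edgeR fit. Filled points passed an adjusted p of 0.05, 6 in LPS and 3 in LPS+RSBD, and nearly all points lie right of 0.

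Each of the 5 sensors was higher in every LPS library than in any control, beside 18.6% of all genes tested. By edgeR 2 of the 5 rose, beside 8.79% of all genes. No other role of the list was apart from control as a whole. The pattern was not general to sensing genes. Among 16 sensors and adaptors outside the list, 7 were apart with higher and 1 with lower levels after LPS. Dhx58, which encodes the RNA helicase LGP2 that modulates RIG-I and MDA5, had CPM of 8.80, 6.94 and 9.79 in the controls, 20.7, 19.4 and 12.4 after LPS, and 12.4, 20.2 and 20.8 with LPS+RSBD. LPS 3 and LPS+RSBD 1 were the low libraries of their groups, and both still lay above every control. Its log2 fold change was 1.04 ± 0.25 (SE) from control to LPS (edgeR adjusted p = 0.0242) and 1.06 ± 0.25 from control to LPS+RSBD (adjusted p = 0.0481).

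Ifi204, an interferon-inducible gene of the DNA-binding p200 family, had the largest LPS change of the list. Its CPM were 9.36, 8.57 and 13.7 in the controls, 40.6, 30.2 and 21.9 after LPS, and 12.0, 29.5 and 41.9 with LPS+RSBD. LPS+RSBD 1 fell inside the control range, and its 2 companions inside or above the LPS range. The log2 fold change was 1.55 ± 0.42 in LPS (edgeR adjusted p = 0.0373) and 1.39 ± 0.42 in LPS+RSBD (adjusted p = 0.0971). The latter did not pass by edgeR, while DESeq2 called it (adjusted p = 0.0445).

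Zbp1, a sensor of Z-form nucleic acid that can start necroptosis, was apart from control in every LPS library without passing the test. It measured 12.6, 9.97 and 21.1 CPM in the controls, 35.5, 36.3 and 27.4 after LPS, and 15.8, 47.5 and 43.5 with LPS+RSBD, where library 1 again lay within the control range. The LPS log2 fold change was 1.18 ± 0.40 (edgeR adjusted p = 0.0721). The sensors of long and of short viral RNA differed from control by less. Ifih1 (MDA5) gave a log2 fold change of 0.30 ± 0.10 in LPS (edgeR adjusted p = 0.0559) and Ddx58 (RIG-I) of 0.18 ± 0.10 (adjusted p = 0.21). DESeq2 called Ifih1 in LPS (adjusted p = 0.0366) and in LPS+RSBD against control (adjusted p = 0.0481).

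By edgeR none of the 3 transcription factors passed in either comparison with control, and DESeq2 called Irf7 with LPS+RSBD. Irf7, the factor that amplifies interferon production, had CPM of 18.6, 19.3 and 40.5 in the controls, 44.4, 50.4 and 35.2 after LPS, and 29.7, 61.4 and 60.5 with LPS+RSBD. Control 3 stood within the LPS range, so the groups overlapped, and LPS+RSBD 1 was under every LPS library. The log2 fold change was 0.73 ± 0.35 in LPS (edgeR adjusted p = 0.176) and 0.95 ± 0.35 in LPS+RSBD (adjusted p = 0.155, against 0.0364 by DESeq2). Irf9 and Stat2, which act in the interferon-activated complex, had LPS values of 0.35 ± 0.16 (adjusted p = 0.151) and 0.13 ± 0.21 (adjusted p = 0.695). The gene model of Irf7 overlaps Phrf1 and that of Irf9 overlaps Rnf31, and whether counting used strand is not given in the sources used here.

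Of 14 effectors that act on RNA or translation, 1 rose after LPS by edgeR (7.14%, beside 8.79% of all genes). Eif2ak2, the gene of the kinase PKR that halts translation on double-stranded RNA, had CPM of 35.8, 40.6 and 40.6 in the controls, 62.2, 54.6 and 46.2 after LPS, and 47.4, 68.2 and 59.7 with LPS+RSBD. Each injured library was above each control, with a log2 fold change of 0.48 ± 0.15 in LPS (edgeR adjusted p = 0.0476) and 0.58 ± 0.15 in LPS+RSBD (adjusted p = 0.0545).

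The oligoadenylate synthetase genes, whose products make the second messenger that activates RNase L, had LPS log2 fold changes from 0.33 ± 0.48 in Oas2 to 1.10 ± 0.54 in Oas3, with 0.96 ± 0.44 in Oas1g, and none passed by edgeR. Oas1a measured 11.7, 11.3 and 20.3 CPM in the controls, 31.0, 29.9 and 24.9 after LPS, and 16.6, 33.9 and 38.9 with LPS+RSBD. LPS stood above control in every library, by 0.99 ± 0.32 on the log2 scale, without passing by edgeR (adjusted p = 0.0633), while DESeq2 called it (adjusted p = 0.00858). Oas3 went from 14.1, 8.60 and 24.6 CPM in the controls to 51.1, 28.5 and 21.4 after LPS, and 10.9, 21.8 and 42.7 with LPS+RSBD. All 3 groups of Oas3 overlapped, and LPS 1 was the highest of the 9 libraries. Oasl2, of a synthetase-like family, had 50.3, 45.4 and 83.6 CPM in the controls, 130.3, 93.7 and 68.3 after LPS, and 58.2, 128.5 and 170.4 with LPS+RSBD, with an LPS log2 fold change of 0.71 ± 0.39 (edgeR adjusted p = 0.238).

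The 4 Ifit genes, of a family whose products bind viral RNA, did not pass by edgeR in either comparison with control. Ifit2 had CPM of 34.2, 28.3 and 34.5 in the controls, 39.1, 42.6 and 38.2 after LPS, and 35.5, 49.8 and 47.4 with LPS+RSBD. All 6 injured libraries of Ifit2 lay above all controls. Its log2 fold change was 0.31 ± 0.14 in LPS (edgeR adjusted p = 0.137) and 0.45 ± 0.13 in LPS+RSBD (adjusted p = 0.0885, against 0.0396 by DESeq2, which called it there). Ifit3 had CPM of 77.4, 50.8 and 85.5 in the controls, 60.5, 90.3 and 64.8 after LPS, and 55.5, 108.7 and 101.0 with LPS+RSBD. Its LPS and control libraries were interleaved, and the log2 fold change was 0.01 ± 0.28 (edgeR adjusted p = 0.979), a value whose sign turned in 6 alternatives. Ifit1 had 15.5, 16.9 and 31.4 CPM in the controls, 27.2, 32.4 and 19.8 after LPS, and 20.9, 45.9 and 45.7 with LPS+RSBD. Against control its log2 fold change was 0.32 ± 0.36 in LPS (edgeR adjusted p = 0.564) and 0.82 ± 0.36 in LPS+RSBD (adjusted p = 0.214).

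Among the 4 measured genes acting on virus entry, replication or release, Bst2 rose after LPS by edgeR. Bst2 encodes tetherin, which holds budding virions at the cell surface, and its CPM were 46.6, 39.6 and 52.1 in the controls, 57.5, 72.1 and 83.0 after LPS, and 56.5, 88.0 and 64.8 with LPS+RSBD. The injured libraries all lay above the controls, and here LPS 3 was the highest of its group. The log2 fold change was 0.62 ± 0.19 in LPS (edgeR adjusted p = 0.0465) and 0.60 ± 0.18 in LPS+RSBD (adjusted p = 0.0993). Rsad2 had CPM of 5.38, 5.64 and 19.6 in the controls, 22.5, 20.8 and 16.8 after LPS, and 14.6, 26.0 and 44.8 with LPS+RSBD. Control 3 lay between LPS 2 and LPS 3, and the log2 fold change in LPS of 0.98 ± 0.53 did not pass (edgeR adjusted p = 0.227). Without control 3, Rsad2 was among the 3 members called.

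By edgeR none of the 7 genes of the ubiquitin-like and ADP-ribosyl pathways passed, and DESeq2 called Isg15 after LPS. Isg15 had CPM of 5.35, 4.78 and 9.0 in the controls, 10.5, 19.1 and 10.1 after LPS, and 6.36, 16.1 and 13.4 with LPS+RSBD. LPS 2 was the highest of the 9, and each LPS library was above each control by a small margin over control 3. The log2 fold change was 1.06 ± 0.40 in LPS (edgeR adjusted p = 0.0925, against 0.0241 by DESeq2) and 0.90 ± 0.40 in LPS+RSBD (adjusted p = 0.214). Usp18, which removes Isg15 from proteins and dampens receptor signalling, gave 0.03 ± 0.25 in LPS (adjusted p = 0.941), and its sign turned in 6 alternatives. Both members with a negative LPS value, the ADP-ribosyltransferase gene Parp14 and the ligase gene Herc6, belong to these pathways.

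Of the 3 genes linked to cell death, Xaf1 rose after LPS and Ifi27l2a with LPS+RSBD by edgeR, and these calls were kept in 4 and 3 of the 17 alternatives. Xaf1, whose product counters an inhibitor of apoptosis, had CPM of 27.4, 23.6 and 27.1 in the controls, 45.6, 39.9 and 37.4 after LPS, and 27.9, 52.6 and 45.0 with LPS+RSBD, where library 1 barely cleared the controls. Its log2 fold change was 0.65 ± 0.20 in LPS (edgeR adjusted p = 0.0489) and 0.68 ± 0.20 in LPS+RSBD (adjusted p = 0.0848). Ifi27l2a, a relative of Ifi27, had CPM of 16.6, 17.4 and 26.3 in the controls, 40.2, 36.6 and 36.8 after LPS, and 30.4, 62.7 and 87.2 with LPS+RSBD. No control reached any injured library, and LPS+RSBD 2 and 3 were above every LPS library while LPS+RSBD 1 was below. The log2 fold change was 0.91 ± 0.33 in LPS (edgeR adjusted p = 0.0868) and 1.58 ± 0.34 in LPS+RSBD (adjusted p = 0.0389), the largest of the list in that comparison.

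Epsti1, an interferon-induced gene expressed in epithelium, stroma and macrophages, had the smallest adjusted p of the list in both comparisons with control. Its CPM were 21.4, 22.1 and 19.2 in the controls, 37.9, 39.8 and 36.6 after LPS, and 30.6, 49.0 and 41.2 with LPS+RSBD. Control 3 was the lowest of the controls here, unlike in 34 of the 42 members. The log2 fold change was 0.87 ± 0.15 in LPS (edgeR adjusted p = 0.00788, and 1.29e-05 to 0.0375 over the 17 alternatives) and 0.94 ± 0.15 in LPS+RSBD (adjusted p = 0.0147, lost in 3 alternatives).

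**Figure D4:**
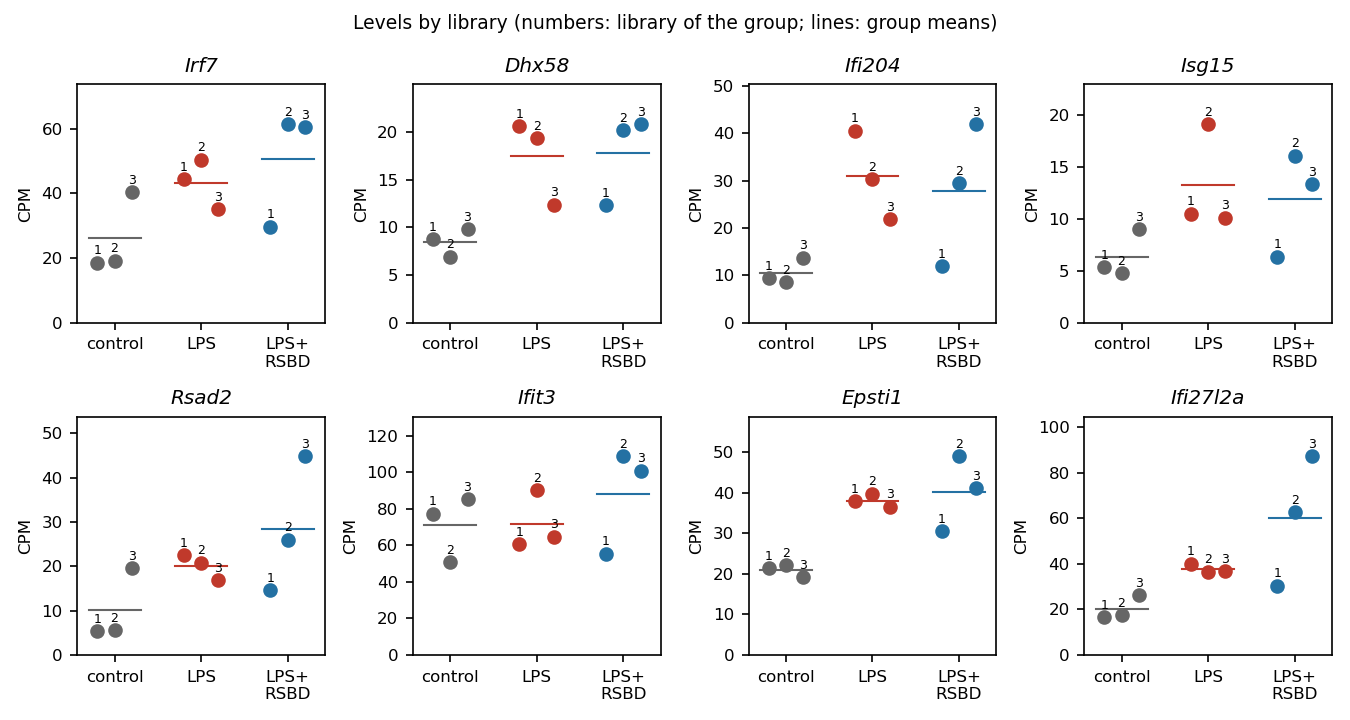
CPM of 8 members in each library, with the number of the library beside each point and a line at the group mean; every vertical axis starts at 0. LPS+RSBD 1 is the lowest of its group in all 8 panels, and control 3 is the highest control in all but Epsti1.

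LPS+RSBD and LPS libraries overlapped in every member. In LPS+RSBD against LPS, 0 of 42 members were called by edgeR in either direction, beside 0% of all genes tested. Also 0 had an unadjusted edgeR p under 0.05, a level met by 5.38% of all genes with higher and 4.04% with lower values. DESeq2 called 0 members, with 2 under that unadjusted level, beside 0.559% of all genes called higher and 0.381% lower, and limma on log2 TPM called 0. The groups were apart in 0 of the 42, against 7.18% of all genes whose LPS+RSBD libraries were all higher and 5.46% all lower. Log2 fold changes ran from -0.43 ± 0.53 in Oas3 to 0.74 ± 0.36 in Oasl1, with a median of 0.10. Of the 42, 32 were positive (76.2%, beside 52.4% of all genes tested), or 16 without LPS+RSBD 2 and 40 without LPS+RSBD 1. For Ifi27l2a the value was 0.66 ± 0.33 (edgeR adjusted p = 0.577), for Rsad2 0.50 ± 0.52 (adjusted p = 0.816) and for Isg15 -0.15 ± 0.39 (adjusted p = 0.938). With SEs of this size, differences well above 0 in either direction are compatible with these values, and a missed threshold does not show that the groups were alike.

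Members varied more within the LPS+RSBD group than within the others. In 35 of the 42 members the SD of log2 CPM was largest in that group, against 32.1% of all genes tested. The median SD over the members was 0.43 with LPS+RSBD, 0.18 with LPS and 0.25 in control, while over all genes it was 0.16, 0.18 and 0.15. LPS+RSBD 1 was below both its companions in 41 members, with Lgals3bp the exception, against 29.7% of all genes. It was below every LPS library in 34 (23.3% of all genes) and within or below the control range in 32 (66.4%). LPS+RSBD 2 or 3 was the highest of the 9 libraries in 36 members (17.7% of all genes), and both were above every LPS library in 23 (10.3%).

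Summed up as a score per library, the mean log2 CPM of the 42 members centred over the 9 libraries, the list read -0.48, -0.54 and -0.05 in the controls, 0.21, 0.21 and -0.01 after LPS, and -0.32, 0.48 and 0.50 with LPS+RSBD. LPS+RSBD 1 thus read within the control range, LPS+RSBD 2 and 3 read above every LPS library, and control 3 lay just under LPS 3. The difference of mean scores was 0.49 from control to LPS, 0.58 from control to LPS+RSBD and 0.08 from LPS to LPS+RSBD. The last became 0.35 without LPS+RSBD 1, with 40 of 42 members positive, 10 at an unadjusted edgeR p under 0.05 and 0 called. It was -0.05 without LPS+RSBD 2, -0.07 without LPS+RSBD 3 and -0.02 without LPS 3. The sign of this difference turned with the library left out.

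**Figure D5:**
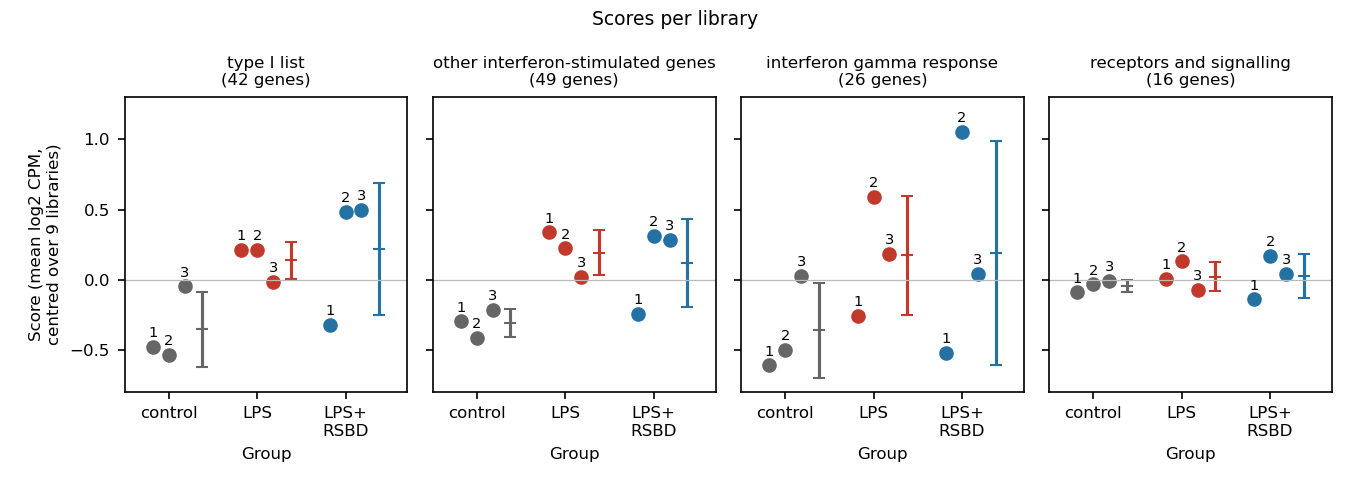
Score per library (mean log2 CPM of a list, centred over the 9 libraries) for the type I list and 3 related lists, with library numbers and, to the right of the points, the group mean and SD (n = 3). In the type I list LPS+RSBD 1 reads -0.32 and LPS+RSBD 2 and 3 read 0.48 and 0.50.

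Almost no interferon message was counted. Of 20 genes of type I and III interferons, 16 had 0 reads in all 9 libraries, 0 passed the filter on low counts, and their reads summed to between 3 and 27 per library. Ifnb1, the early type I interferon, had 2 reads in all, both in LPS 3, and Ifna7 had 2, both in LPS 1. Ifnk, an interferon of epithelium, had 72 reads, 22 of them in control 1 and 22 in LPS 1. A gene with 0 reads could have been present below the depth of these libraries, so absence is not shown.

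Few of the receptor and signalling genes were called. Of 16, 1 rose after LPS by edgeR (6.25%) and 0 fell, beside 8.79% of all genes tested that rose and 8.63% that fell. At an unadjusted edgeR p under 0.05 there was 1 each way, beside 17.2% of all genes higher and 17.3% lower. DESeq2 called 1, and limma on log2(TPM + 1) called 0. With LPS+RSBD against control 0 rose and 1 fell by edgeR, beside 1.89% and 1.80% of all genes, and 2 each way met that unadjusted p. DESeq2 also called 0 higher and 1 lower, and limma called 0. After LPS the groups did not overlap in 5 with higher (31.2%) and 2 with lower levels, against 18.6% and 19.5% of all genes tested. Log2 fold changes ran from -0.54 to 0.55. With LPS+RSBD against control 3 were apart each way, against 15.4% of all genes higher and 15.0% lower, with values from -0.54 to 0.84. The receptor chain genes Ifnar1 and Ifnar2 had LPS log2 fold changes of 0.14 ± 0.08 (edgeR adjusted p = 0.279) and 0.14 ± 0.07 (adjusted p = 0.166). The gene that rose was Ptpn6, of a phosphatase of blood cells that dampens receptor signalling, by 0.48 ± 0.14 on the log2 scale (adjusted p = 0.0439). The gene that fell with LPS+RSBD was Ifnlr1, a receptor chain for type III interferon in epithelium. Its log2 fold change was -0.54 ± 0.12 in LPS+RSBD against control (edgeR adjusted p = 0.0377) and -0.34 ± 0.12 in LPS (adjusted p = 0.0687), where it was not called.

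Among 16 sensors and adaptors outside the list, 5 rose after LPS by edgeR (31.2%) and 0 fell, beside 8.79% and 8.63% of all genes tested. At an unadjusted edgeR p under 0.05, 1 was lower. DESeq2 also called 5 higher and 0 lower, and limma on log2(TPM + 1) called 2 higher. With LPS+RSBD against control 1 rose by edgeR (6.25%, beside 1.89% of all genes) and 0 fell. By DESeq2 3 rose and 1 fell, beside 5.73% and 5.42% of all genes, and limma called 0. Tlr7, the endosomal receptor for single-stranded RNA, had CPM of 11.6, 12.2 and 12.5 in the controls, 41.7, 30.7 and 26.1 after LPS, and 18.7, 25.0 and 31.9 with LPS+RSBD. It rose by 1.44 ± 0.21 on the log2 scale in LPS (edgeR adjusted p = 0.00476) and by 1.06 ± 0.21 in LPS+RSBD (adjusted p = 0.031). The others were Ticam2, an adaptor of Toll-like receptor 4, Tlr3, Trim25 and Aim2. Irf3 and Mavs, which relay sensing to interferon transcription, had LPS values of -0.06 ± 0.08 and -0.10 ± 0.09 (adjusted p = 0.618 and 0.436).

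Calls were also made in a further list of interferon-stimulated genes. The lists here and below share some genes, and a shared call is counted in each. Trim25 is also among the sensors and adaptors above, Tlr7 is also a plasmacytoid dendritic cell marker, and Ms4a4c is also a monocyte marker. Of 49 tested, 14 rose after LPS by edgeR (28.6%, beside 8.79% of all genes), 16 of 51 by DESeq2 and 6 by limma on log2 TPM. With LPS+RSBD against control 4 rose by edgeR (8.16%, beside 1.89% of all genes), 16 of 51 by DESeq2 and 2 by limma. In the same comparisons DESeq2 called 12.5% and 5.73% of all genes higher, and limma 4.97% and 0.671%. None fell in either by these tools, and 0 were lower at an unadjusted p under 0.05. The galectin gene Lgals9 rose by 0.73 ± 0.08 on the log2 scale after LPS (edgeR adjusted p = 0.00225), and the DNA exonuclease gene Trex1 by 2.31 ± 0.35 (adjusted p = 0.00476). Also called were Ms4a4c, of a membrane protein of myeloid and lymphoid cells, and Gpr141, with 1.91 ± 0.25 and 2.33 ± 0.43. LPS+RSBD 1 was below its companions in 45 of these 49 (91.8%), against 29.7% of all genes. In the interferon gamma list 5 of 26 rose after LPS by edgeR (19.2%, beside 8.79% of all genes), Gbp9, Ifngr2, Gbp4, Ciita and Ido1. With LPS+RSBD against control 1 rose, Ciita (3.85%, beside 1.89% of all genes). DESeq2 called 6 and 3 of these 26, and limma 2 and 0 of 25. There the scores of LPS+RSBD 1, 2 and 3 were -0.52, 1.06 and 0.04, so libraries 2 and 3 were far apart, unlike in the type I list. In LPS+RSBD against LPS, edgeR, DESeq2 and limma called 0 genes in each of these 4 lists. Each list had 0 to 1 gene at an unadjusted edgeR p under 0.05, beside 5.38% of all genes higher and 4.04% lower.

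Markers of several immune cell types and of endothelium were also called after LPS, and others were not. After LPS, 6 of 15 monocyte, 6 of 15 alveolar macrophage and 9 of 12 NK cell markers rose by edgeR, beside 8.79% of all genes tested. So did 2 of 16 neutrophil markers (12.5%), 3 of 14 plasmacytoid dendritic cell markers and 3 of 10 endothelium markers (30.0%). Of 12 airway epithelium markers 9 fell, beside 8.63% of all genes. Of 9 T cell and 10 B cell markers 0 were called, with 4 and 0 higher at an unadjusted p under 0.05. In LPS+RSBD against LPS, edgeR called 0 markers of these cell types. At an unadjusted edgeR p under 0.05, 11 neutrophil, 5 alveolar macrophage, 3 monocyte and 1 endothelium markers were lower there, beside 4.04% of all genes. Higher at that level were 8 airway epithelium markers and 1 NK cell marker, beside 5.38% of all genes. Summed monocyte markers were 2706 to 3109 CPM in control, 4658 to 6012 in LPS and 2598 to 4029 in LPS+RSBD, and LPS+RSBD 1 held that group's lowest sum, as in the type I list. Neutrophil sums were 956.1 to 2570 in control, 2758 to 7814 in LPS and 767.7 to 3566 in LPS+RSBD, where LPS+RSBD 2 held the lowest sum. By score, LPS+RSBD 1, 2 and 3 read -2.098, -1.568 and 0.405 for neutrophil markers, so there LPS+RSBD 1 was the lowest, as in the type I list. LPS+RSBD 2, high in the type I list, read below every control by both measures. B cell and plasmacytoid dendritic cell scores of LPS+RSBD 1 were 0.56 and 0.33, above every control and LPS library, where its type I score was low. NK cell sums were 54.1 to 64.5, 123.3 to 162.8 and 152.5 to 259.4 CPM in the same order of groups. The part of these cell types in the members' differences was not tested.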

How the data were processed

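Lung RNA of 9 mice was sequenced as directional mRNA libraries, with paired reads of 150 bases per the labels' protocols. The authors deposited estimated counts (expected counts) per gene, all of them whole numbers, so nothing was rounded, and TPM values for the same genes, which served alternatives and comparisons between genes. The genome GRCm38 (mm10) and the tools DESeq2 1.38.3, StringTie 2.2.0, HISAT2 2.2.1 and fastp 0.23.2 are named, per the submitters' processing notes, with no role given. How genes were counted and on which annotation is not given in the sources used here. Columns named RS were taken as LPS+RSBD because no other group was left.

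Here, R 4.3.3 and edgeR 4.0.16 were used on the counts. The filter was filterByExpr with minimum count 10 and minimum total 15, and the scaling was TMM. One robust quasi-likelihood model of group held all 9 libraries, and tests were 2-sided with Benjamini-Hochberg adjustment over the 15636 genes tested. The procedure was tested on simulated data. Depth and spread together gave log2 fold changes with a median SE of 0.15. CPM are TMM-scaled, and scores use a prior count of 2. Alternatives were RLE scaling, DESeq2 1.42.0, no filter, limma 3.58.1 on log2 TPM, a fit of only the 6 libraries compared, a replicate block, and leaving out each library. Genes are named by a rule: members called with a mean of at least 5 CPM, 16 fixed members, up to 4 called genes of each pathway list, and 7 fixed pathway genes, of which 1 is not reported here; others mentioned as extremes, exceptions or examples were chosen after their values were seen. The members and lists were chosen with earlier results of these data known.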

Additional observations from a re-analysis of the deposited data

How the results depend on the processing

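No member was called lower in any comparison, and none was called in LPS+RSBD against LPS, under any of the 17 alternatives. The 6 members higher in LPS than in control (8.79% of all genes tested) became 4 with RLE scaling (9.04%) and 11 with DESeq2 (12.5%). They became 3 with no filter on low counts (6.84%) and 1 in each of the 3 limma fits on log2 TPM (2.79% to 5.04%). A replicate block gave 1 (5.63%) and the fit of only the 6 libraries compared gave 12 (8.33%). When a library was left out, the number ranged from 1 to 13. The 3 higher in LPS+RSBD than in control (1.89% of all genes) became 2 with RLE scaling (1.86%) or no filter (1.61%), and 12 with DESeq2 (5.73%). With limma they became 1 on log2(TPM + 1) (0.671%) or log2(TPM + 0.1) (0.692%), and 0 without a filter (0.201%). A replicate block (0.812%) and the fit of 6 libraries (1.19%) each gave 1, and leaving out a library gave 0 to 15. The causes of these moves were not tested. Differences of mean scores moved by less than the pooled SD within groups, 0.32, which the spread of LPS+RSBD dominates: 0.37 to 0.65 for LPS, 0.43 to 0.85 for LPS+RSBD against control and -0.07 to 0.35 between the injured groups. Correlations of deviations between libraries of the same number ran from -0.215 to 0.122, so no strong pairing by number was seen. With 3 libraries per group such correlations cannot exclude a weaker one.

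Signs turned for a few log2 fold changes near 0. In LPS against control, Ifit3 read -0.067 with limma on log2(TPM + 1) with or without a filter, -0.068 with a pseudocount of 0.1, -0.013 with the replicate block, and -0.18 to 0.17 on leaving out a library. Stat2 read -0.019 in each limma fit. Usp18 read -0.076, or -0.078 with a pseudocount of 0.1, and -0.14 to 0.30 on leaving out a library. Oas2 read -0.18 to 0.63 on leaving out a library, negative without LPS 1. In LPS+RSBD against LPS, leaving out a library gave -0.43 to 0.21 for Isg15, -0.089 to 0.24 for Epsti1 and -1.06 to 0.0047 for Oas3. Precision was limited by the spread between the 3 animals of a group.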
